A study of Mus musculus with 12 samples.

Results

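The chemokine ligand genes Ccl3, Ccl4, Ccl5, Ccl6, Ccl9 and Cxcl2 and the chemokine receptor genes Ccr1 and Ccr2 were examined in mouse bone marrow stem cells sorted for the presence or absence of surface CD49. They are 8 of the 18193 genes named on the arrays. Every probe set that the platform annotation assigned to exactly 1 of these symbols was taken, which gave 14 of the 45137 probe sets of both chip designs together. MOE430A carried 13 of them and covered all 8 genes, and MOE430B carried 1, for Ccr2. The genes were chosen by their signals in these same samples, by CD49 group and by submission, so that their differences are described here. Outcomes that the tests over whole designs gave for them are stated as well, but nothing is read from these.

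Cells without (CD49-) and with (CD49+) the surface antigen had been separated by fluorescence-activated sorting. Each preparation held about 30 cells of a stated purity of 97.03%, taken at 0 h, lysed and amplified by PCR to cDNA, which was supplied as 100 ul at 0.1 ug/ul. There were 3 CD49- and 3 CD49+ samples, each hybridised to both Affymetrix designs, 12 arrays in all. CD49 is a name shared by several integrin alpha subunits. The labels name no subunit, strain, age, sex, genotype or agent, and both groups were handled in the same serum-containing medium. The sample titles start with MZ1484 (CD49- replicate 1 and CD49+ replicate 1) or MZ1468 (the other 4 samples), called submissions here. Arrays of 1 submission shared a scan day on each design, so that submission and scan day cannot be told apart. Nothing states that replicates came from separate animals or sorts, and any p-value reflects the variation among these 6 samples alone, part of which may be technical.

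Chemokines are small secreted proteins that direct the movement of leukocytes by binding G protein-coupled receptors. CCR1, a receptor of CCL3, CCL5, CCL6 and CCL9 among others, and CCR2, the receptor of CCL2 and CCL7, guide monocytes and other myeloid cells, and CCR2 is needed for monocytes to leave the bone marrow. CCL3 and CCL4 are made by activated macrophages and lymphocytes, and CCL3 has been studied in the marrow as an inhibitor of stem and progenitor cell proliferation. CXCL2 acts on neutrophils through CXCR2, a receptor of a different family branch.

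Ccl5, Ccl9, Ccl6, Ccl3 and Ccl4 lie in that order on mouse chromosome 11, with 0 other protein-coding genes between them in the RefSeq annotation. Ccr1 and Ccr2 lie on chromosome 9 with Ccr1l1 and Ccr3 between them, and Cxcl2 lies on chromosome 5. RefSeq promoter sequences (GRCm38.p6) matched 6 of the 8 genes: Ccl3, Ccl6, Ccl9, Cxcl2, Ccr1 and Ccr2. The 250 bases before the start sites of Ccl3 (chr11:83649379-83649628), Ccl6 (chr11:83593088-83593337) and Ccl9 (chr11:83578637-83578886), all on the minus strand, are printed 5′ to 3′. Of these neighbouring genes, Ccl9 had a pattern over the 6 samples unlike those of Ccl3 and Ccl6. The brightest probe sets of Ccl3 and Ccl6 had like patterns (Pearson r of log2 values 0.92), against -0.65 and -0.58 with that of Ccl9. Both peaked in CD49+ replicate 1, and that of Ccl6 was above the background bound, set out below, in 2 samples only. Ccl4, which had no matched promoter, had r of 0.76 with Ccl3, 0.66 with Ccl6 and -0.94 with Ccl9. Capitals mark matches to 3 motifs searched on both strands, the kappaB consensus (bound by NF-kappaB), TATAAA (the TATA box) and GGAAGT (bound by ETS factors).
Ccl3: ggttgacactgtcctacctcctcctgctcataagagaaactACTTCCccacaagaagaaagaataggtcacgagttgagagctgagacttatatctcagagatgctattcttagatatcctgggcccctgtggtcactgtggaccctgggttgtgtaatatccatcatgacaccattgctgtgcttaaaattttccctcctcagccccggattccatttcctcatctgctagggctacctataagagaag
Ccl6: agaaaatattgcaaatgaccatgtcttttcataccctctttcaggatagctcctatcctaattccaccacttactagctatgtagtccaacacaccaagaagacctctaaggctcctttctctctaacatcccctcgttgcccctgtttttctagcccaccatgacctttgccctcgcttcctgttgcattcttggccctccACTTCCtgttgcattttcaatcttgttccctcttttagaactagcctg
Ccl9: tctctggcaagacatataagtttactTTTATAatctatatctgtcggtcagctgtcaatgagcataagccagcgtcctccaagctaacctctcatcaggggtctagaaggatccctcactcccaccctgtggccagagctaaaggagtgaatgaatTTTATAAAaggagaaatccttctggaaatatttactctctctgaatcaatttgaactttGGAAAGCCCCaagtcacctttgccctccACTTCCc
The ETS letters were found in 3 of the 6 matched genes, starting at base -209 of Ccl3, -48 of Ccl6 and -7 of Ccl9. They occurred in 19.7% of 32851 mouse promoters of this length. The kappaB consensus was found in 7.25% of them, and in 3 of the 6 matched genes: Ccl9 (base -35), Cxcl2 (bases -97 and -96, which overlap on opposite strands) and Ccr1 (base -74). TATAAA, found in 12.4%, occurred in Ccl9 alone among the 6 genes, at bases -224, -94 and -92, where the latter pair overlap on opposite strands. A match describes letters in this window and is not evidence of binding.

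Signals are the linear MAS5 values that the authors deposited. The background bound of an array was set at its highest signal among 27 Bacillus control probe sets, whose transcripts mouse cells lack. It ranged from 78.0 to 148.7 on MOE430A and from 843.8 to 1465.5 on MOE430B, and between 39.5% and 61.1% (MOE430A) and 16.5% and 28.6% (MOE430B) of probe sets exceeded it. On MOE430A the share was lowest in CD49+ replicate 1, whose bound was the highest. Differences are on the log2(signal + pseudocount) scale, which understates changes of dim genes, with a pseudocount of 27.0 on MOE430A and 139.8 on MOE430B. Of the stem cell markers, 6 of 11 measured on MOE430A (Cd34, Gata2, Hlf, Kit, Meis1 and Ptprc) were above the bound on all 6 arrays, while the stem cell marker Slamf1 was above it in the CD49- samples only.

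Of the 14 chemokine and receptor probe sets, 1 (Ccl3) was above the bound in all 6 samples, 7 in some samples and 6 in none. Ccl3 and a probe set of Ccl6 stood out in 1 sample, CD49+ replicate 1. Ccl4 was highest in the same sample, but both MZ1484 samples were above all MZ1468 samples. Over all 16416 probe sets of MOE430A above the bound on at least 1 array, 24.7% had their highest signal in CD49+ replicate 1. Both Ccl9 probe sets were above the bound in the MZ1468 samples alone, and both Ccr1 probe sets exceeded it in CD49+ replicate 3 alone. The remaining probe set, of Ccr2, exceeded it in CD49- replicate 2 and CD49+ replicate 3.

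**Figure D1:**
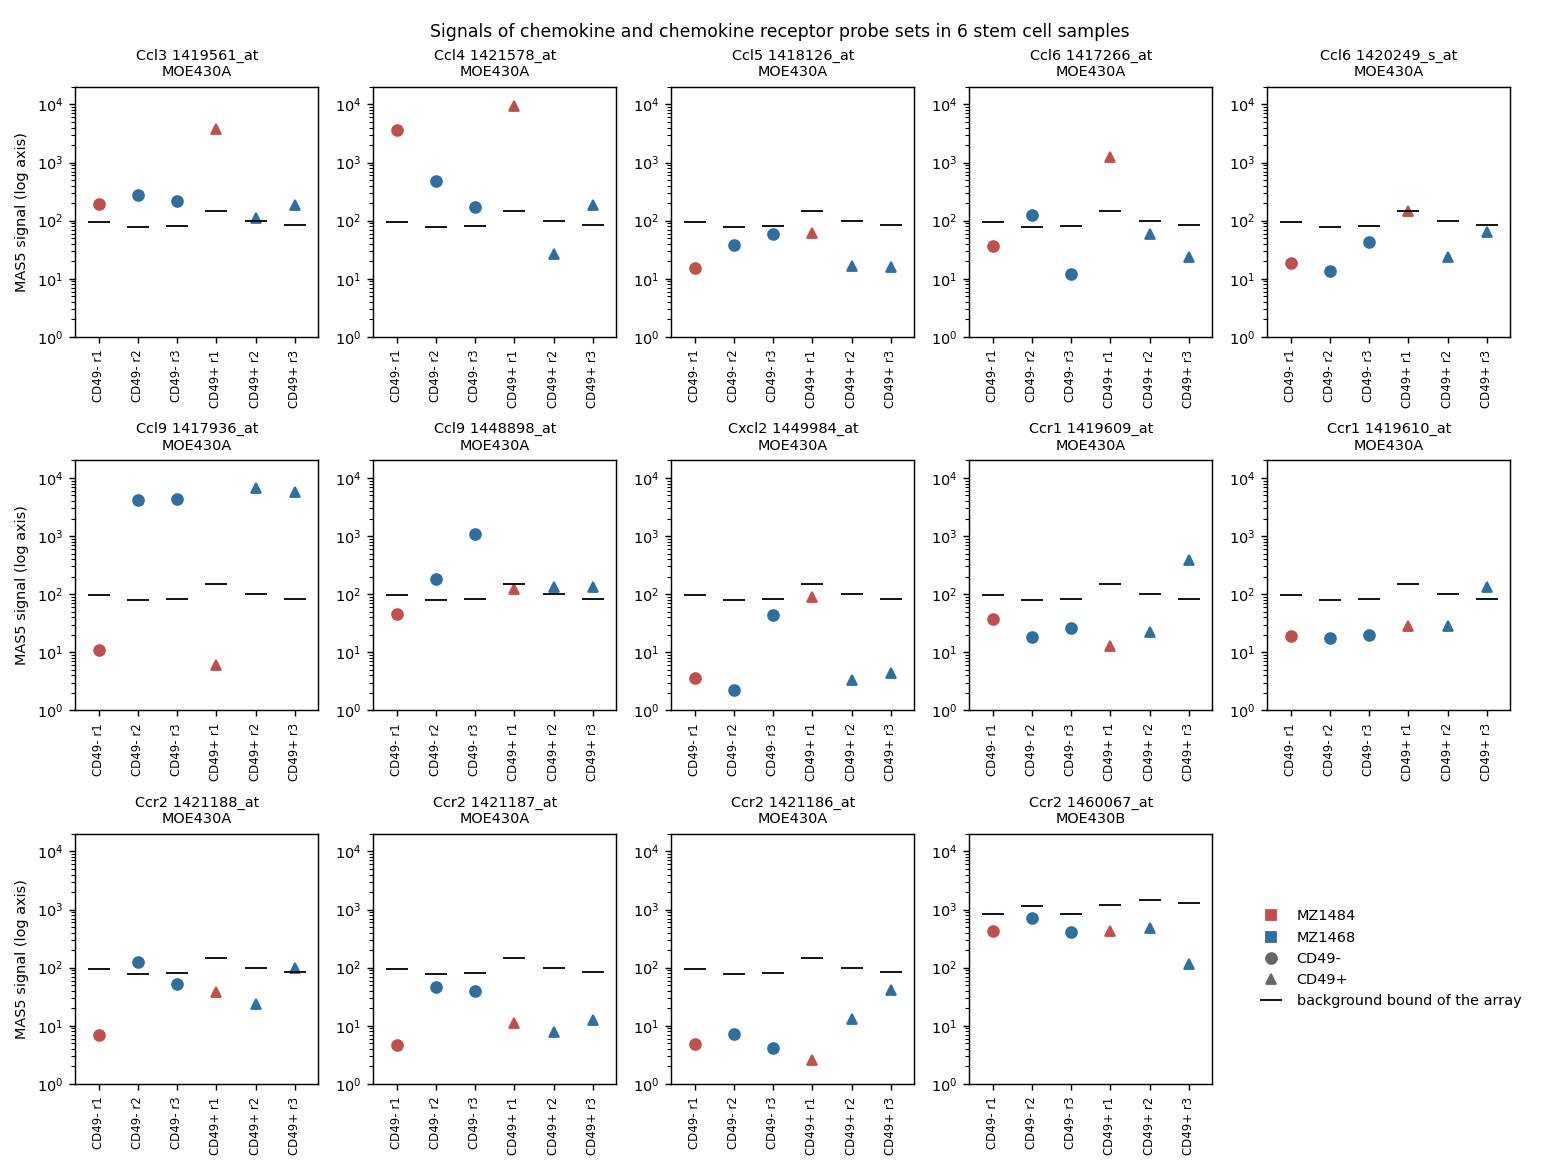
MAS5 signal (log axis) of each of the 14 probe sets in each sample (r, replicate), with circles for CD49- and triangles for CD49+ samples, red for MZ1484 and blue for MZ1468, and a dash at the background bound of each array. Ccl3 peaks at 3832 in CD49+ replicate 1, and Ccl9 probe set 1417936_at is at 4122 to 6821 in the MZ1468 samples and at 11.0 and 5.98 in the MZ1484 samples.

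Ccl3, which encodes macrophage inflammatory protein 1-alpha, gave signals (1419561_at) of 193, 275 and 215 in CD49- replicates 1, 2 and 3 and of 3832, 113 and 182 in CD49+ replicates 1, 2 and 3. All 6 were above their bounds. CD49+ replicate 1 stood 13.9 times above the next sample, while the other 2 CD49+ samples were below every CD49- sample. The groups thus overlapped, with means (log2, SD, n = 3) of 7.98 ± 0.24 for CD49- and 8.92 ± 2.61 for CD49+ and a difference of 0.94 (moderated SE 1.32). Within MZ1484 the CD49+ sample was higher by 4.13, and within MZ1468 the difference was -0.66. Without CD49+ replicate 1 the difference over both submissions was -0.56. The MZ1484 samples were higher than the MZ1468 samples by 2.10 (SE 1.15), and without CD49+ replicate 1 this difference was -0.30.

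Ccl4, which encodes macrophage inflammatory protein 1-beta, gave signals (1421578_at) of 3577, 489 and 172 in CD49- and of 9278, 26.6 and 186 in CD49+ replicates 1, 2 and 3. CD49+ replicate 2 was the only sample at or under its bound. Both MZ1484 samples were above all 4 MZ1468 samples, whereas the 3 CD49- signals lay inside the range of the CD49+ signals. The CD49 difference was -0.60 (SE 2.06), with 1.37 within MZ1484 and -1.58 within MZ1468. It turned to 0.56 without CD49- replicate 1 and to 0.97 without CD49+ replicate 2, and it was -2.75 without CD49+ replicate 1. The MZ1484 samples were higher than the MZ1468 samples by 4.97 (SE 1.08), with mean log2 values of 12.50 ± 0.97 (SD, n = 2) and 7.53 ± 1.35 (SD, n = 4). This difference was 3.49 without CD49+ replicate 1 and 6.44 without CD49- replicate 1.

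Ccl6, a CC chemokine made by myeloid cells in mice, had a probe set (1417266_at) with signals of 37.1, 126 and 12.1 in CD49- and of 1228, 59.9 and 23.2 in CD49+ replicates 1, 2 and 3. Only CD49- replicate 2 and CD49+ replicate 1 were above their bounds, and the latter was 9.78 times above the former. The CD49 difference was 1.28, with 4.29 within MZ1484 and -0.22 within MZ1468, and it was -0.14 without CD49+ replicate 1. The second Ccl6 probe set (1420249_s_at) was at or under the bound in all 6 samples, at 13.6 to 147, and its highest signal was again in CD49+ replicate 1. Neither passed the filter on low values.

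Ccl9, a CC chemokine of myeloid cells and osteoclasts that signals through CCR1, was at 4122 and 4362 in the MZ1468 CD49- samples and at 6821 and 5739 in the MZ1468 CD49+ samples (1417936_at). In the MZ1484 samples it was at 11.0 (CD49-) and 5.98 (CD49+), both under the bound. The submissions were separated by a wide gap, while the CD49 groups overlapped. Mean log2 values were 5.15 ± 0.14 in MZ1484 (SD, n = 2) and 12.34 ± 0.34 in MZ1468 (SD, n = 4), a difference of -7.19 (SE 0.74). Because the MZ1484 values are only upper limits, the signal was at least 43.1-fold higher in MZ1468, where the fold sets the mean log2 signal of MZ1468 against the mean of the higher of bound and signal in MZ1484. The CD49 difference was 0.30 (SE 2.66), with -0.20 within MZ1484, between values under the bound, and 0.56 within MZ1468. With 1 sample left out it lay between -1.97 (without CD49- replicate 1) and 2.83 (without CD49+ replicate 1), and it was also negative without CD49+ replicate 2 or 3.

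The second Ccl9 probe set (1448898_at) shared the side but not the size of this difference. Its signals were 45.6, 185 and 1091 in CD49- and 121, 135 and 131 in CD49+ replicates 1, 2 and 3, above the bound in the 4 MZ1468 samples alone. The signal was at least 2.04-fold higher in MZ1468, a bound that was 1.24-fold without CD49- replicate 3. The log2 difference between submissions of -1.43 (SE 0.94) was -0.11 without CD49- replicate 1, -0.73 without CD49- replicate 3 and -2.74 without CD49+ replicate 1. The CD49 difference was -0.73 (SE 0.99), with 1.02 within MZ1484 and -1.61 within MZ1468, and CD49- replicate 3 alone gave the highest signal by 5.90 times. Without that sample the difference turned to 0.33. The probe sets of Ccl9 thus differ in how they rank the MZ1468 samples.

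Ccl5 (RANTES), a chemokine of T cells, natural killer cells and platelets, was at or under the bound in all samples, at 15.5 to 60.6 (1418126_at). Cxcl2 (macrophage inflammatory protein 2) was likewise at or under it, at 2.21 to 88.6, again with the highest signal in CD49+ replicate 1 (1449984_at). For these genes no level can be told from background, and their signals set upper limits only.

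Of the receptors, Ccr1 was above the bound in CD49+ replicate 3 alone with both of its probe sets. The first (1419609_at) gave 36.9, 18.3 and 26.6 in CD49- and 13, 22.0 and 391 in CD49+ replicates 1, 2 and 3. Its CD49 difference of 0.80 was -0.28 without that sample. The second (1419610_at) gave 18.8, 17.7 and 19.9 in CD49- and 28.6, 28.8 and 134 in CD49+ replicates 1, 2 and 3. All 3 CD49+ signals of the second were above all 3 CD49- signals, but only 1 of the 6 exceeded its bound. It did not pass the filter on low values, and it was the 1 probe set among the 14 whose CD49 groups did not overlap. On MOE430A 1653 of all 22626 probe sets, and 6.92% of those tested, showed no overlap. Ccr3 and Ccr1l1, the genes between Ccr1 and Ccr2, were at or under the bound on all MOE430A arrays.

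Ccr2 was measured by 4 probe sets. The one with any signal above its bound (1421188_at) gave 7.08, 124 and 53.2 in CD49- and 37.5, 24.2 and 99.2 in CD49+ replicates 1, 2 and 3, and exceeded it in CD49- replicate 2 and CD49+ replicate 3. The CD49 difference was 0.00 on the log2 scale. The other MOE430A probe sets were at 2.60 to 46.2, and the MOE430B probe set (1460067_at) was at 117 to 722, under its bound in all samples, with a CD49 difference of -0.52 (SE 0.50). Both receptors were thus at or near background in most of these samples, and the description as myeloid receptors is background knowledge that these signals do not bear out.

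Across all probe sets of MOE430A and MOE430B, the comparison of CD49+ with CD49- samples (limma, Benjamini-Hochberg adjustment within each design) called 0 of 11313 and 0 of 11256 tested probe sets, a share of 0% on each. The smallest adjusted p was 0.90 and 0.53, and unadjusted p-values under 0.05 were given to 2.4% and 3.68% of the probe sets. Of the 14 chemokine and receptor probe sets, 4 on MOE430A (Ccl3, Ccl4 and both of Ccl9) and 1 on MOE430B (Ccr2) passed the filter on low values, and 0 had an unadjusted p under 0.05. For 11 of the 14, the CD49 difference had opposite signs within MZ1484 and within MZ1468. Some of these 11 were at or under the bound in all samples. The share with opposite signs over all probe sets was not counted, so that nothing is read from this count. MZ1484 is 1 sample against 1, so that its differences have no replicate check.

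**Figure D2:**
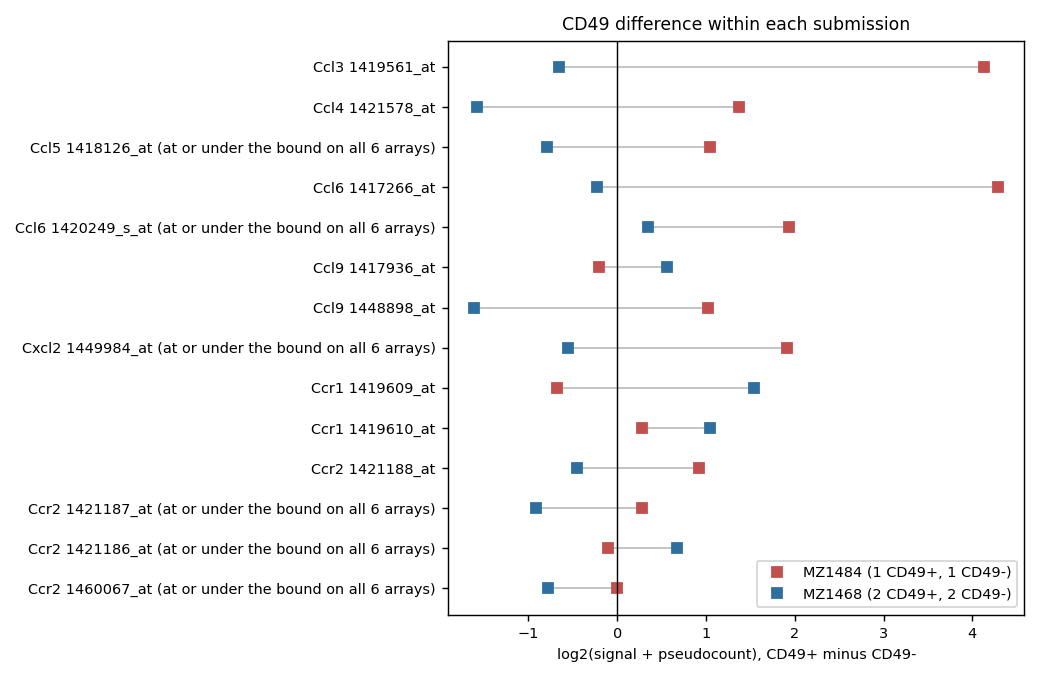
CD49+ minus CD49- difference in log2(signal + pseudocount) of the 14 probe sets within MZ1484 (red, 1 sample against 1) and within MZ1468 (blue, 2 samples against 2). Ccl3 (4.13 and -0.66) and Ccl6 1417266_at (4.29 and -0.22) differ most between submissions, and 6 probe sets were at or under the bound on all 6 arrays.

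The submissions themselves differed in 839 of the 11313 tested probe sets of MOE430A (7.42%), with 131 higher (1.16%) and 708 lower (6.26%) in MZ1484. Among the 4 chemokine probe sets tested there, 2 were called, Ccl4 as higher and Ccl9 (1417936_at) as lower in MZ1484, and 3 of the 4 showed no overlap between submissions, where 37.4% of all tested probe sets showed none. These genes were chosen with this contrast in view, and nothing is read from the counts. Both calls were lost when CD49- replicate 2, CD49- replicate 3 or CD49+ replicate 3 was left out, each of which left 0 calls on the whole design (limma, with 2179 to 2650 unadjusted p-values under 0.05). The Ccl4 call was also lost with a pseudocount of 1, with no filter, and without CD49+ replicate 1 or 2. On MOE430B 45 of 11256 probe sets were called (0.4%), and the Ccr2 probe set was not. Its groups overlapped by CD49 and by submission, where 9.26% and 25.8% of the tested probe sets of that design showed no overlap. The median difference between submissions over all tested probe sets of MOE430A was -0.43, and it was -0.16 after median centring.

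Other chemokine genes did not pass the CD49 test either. Of the other CC ligands 3 of 13 measured genes were tested on MOE430A, of the CXC, CX3C and XC ligands 6 of 14, and of the other receptors 4 of 20, with 0 called by CD49 or by submission in each list. Over all genes tested on that design, with 1 probe set a gene, 7.63% were called by submission, 1.35% as higher and 6.28% as lower in MZ1484. No gene of these 13 tested had an unadjusted p under 0.05 for CD49. On MOE430B, 7 of 11 measured genes of these lists were tested and 0 were called. The median CD49 differences of these lists were -0.03, -0.75 and 0.39, against -0.09 over all 7322 genes tested. The median for CC ligands turned to 0.09 under median centring. The median differences between submissions were 0.38, 2.84 and 2.24, against -0.40 over all genes tested. All these medians cover tested genes alone, and a gene can pass the filter on low values through high signals in 1 submission. Cxcl12, a tested gene, had mean log2 values of 9.12 in MZ1484 and 6.35 in MZ1468. Nothing is therefore read from these medians. Of the 47 other ligand and receptor genes measured on MOE430A, 29 were above the bound in at least 1 sample, and 12 of these had their highest signal in CD49+ replicate 1 and 10 in CD49- replicate 1, the other MZ1484 sample. Among all probe sets of that design above the bound on at least 1 array, 24.7% and 18.5% were highest in these samples.

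CD49+ replicate 1 was also the highest sample for several abundant genes of the family. The atypical receptor gene Ccrl2 was at 1367, 152 and 225 in CD49- and at 20124, 206 and 982 in CD49+ replicates 1, 2 and 3. The interferon-induced ligand gene Cxcl10 was at 591, 57.8 and 414 in CD49- and at 17432, 6.15 and 309 in CD49+ replicates 1, 2 and 3. Ccl27a, a CC chemokine best known from skin, was at 9232 in that sample and at 272 to 1668 in the others. The pattern was not shared by every gene. Cxcl12, the stem cell retention factor of marrow stroma, was above its bound only in CD49- replicate 1, at 1858, with 37.9 to 138 in the other samples. Cxcr4, its receptor, was again highest in CD49+ replicate 1, at 1255, 23.0 and 607 in CD49- and at 3780, 9.52 and 919 in CD49+ replicates 1, 2 and 3. Its signal was under the bound in replicate 2 of each group alone.

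**Figure D3:**
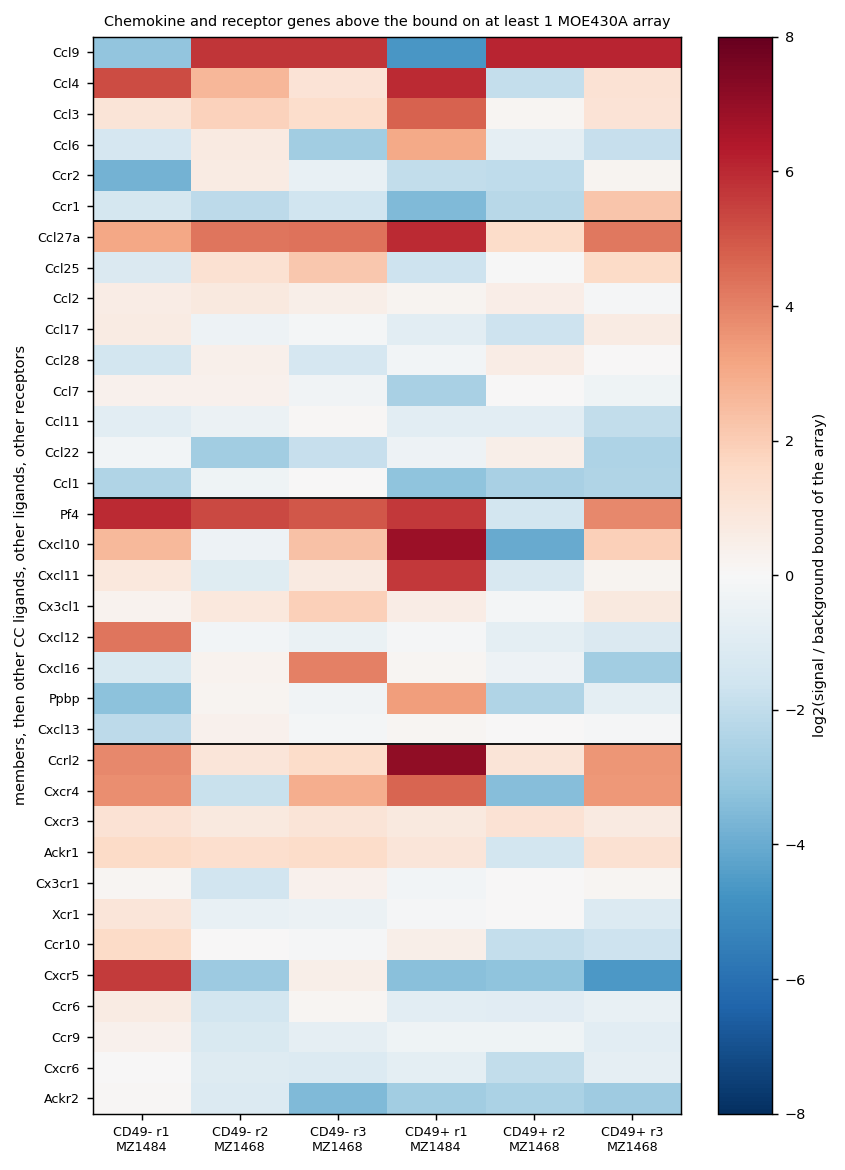
log2 ratio of signal to background bound on MOE430A, by sample, for the 35 chemokine and receptor genes above the bound on at least 1 array, with red above and blue below the bound and lines between the 8-gene set, other CC ligands, other ligands and other receptors. Ccl3, Ccl4, Ccl6, Cxcl10 and Ccrl2 are reddest in CD49+ replicate 1, and Ccl9 is red in the 4 MZ1468 samples.

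The platelet chemokine gene Pf4 (platelet factor 4) was at 5929, 2985 and 2561 in CD49- and at 7419, 36.0 and 1221 in CD49+ replicates 1, 2 and 3, with a CD49 difference of -2.10 (SE 1.72, limma adjusted p = 1.00). On MOE430B the scavenging receptor gene Ackr4 was at 2596 in CD49- replicate 1 and at 56486 to 92739 in the other 5 samples. On MOE430A, however, its brightest probe set was at or under the bound in all samples. Genes that act downstream of the receptors were more often above the bound. Of 19 signalling genes on MOE430A all 19 were tested and 12 were above the bound in all samples, 0 were called by CD49, and 1 was called by submission, as lower in MZ1484, where 6.28% of all genes were. The median CD49 difference of these genes was -0.07, and 0.05 under median centring. Gnb1 was at 9692 to 14923 in all samples, while Arrb1 was at 38.0 to 2480 and above the bound in the MZ1468 samples alone. On MOE430B Elmo1 was at 107 to 12672, Rgs2 at 1701 to 89594 and Grk6 at 1125 to 110793. Rac2, a GTPase needed for leukocyte migration, was at 16163 to 29292 in all samples, with a CD49 difference of 0.34 (SE 0.24, limma adjusted p = 1.00). Its MOE430B probe set went the other way, at 41.1 to 1599, above the bound in CD49- replicates 2 and 3 alone, with a difference of -1.60 (SE 0.83, limma adjusted p = 1.00).

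Summed signals of several lists were highest in CD49+ replicate 1, whether of markers of other cells or not. The summed signal of the 13 monocyte and macrophage markers measured on MOE430A was 98073 in that sample and 16967 to 54170 in the others, a range of 33658 to 54170 in CD49- and 16967 to 98073 in CD49+ samples. The sum of the 11 stem cell markers was likewise 74838 in that sample and 23830 to 45393 in the others, and that of the 19 receptor signalling genes was 99385 against 67370 to 76696. Of the 13 monocyte and macrophage markers, 8 were above the bound in CD49+ replicate 1 and 4 to 8 in the other samples. Cd68, a lysosomal protein of macrophages and the monocyte marker with the smallest p for CD49 on that design, went against the sum, at 110, 2729 and 4153 in CD49- and at 265, 29.1 and 175 in CD49+ replicates 1, 2 and 3. Csf1r, the receptor of the macrophage growth factor, was at 12158 there and at 7.73 to 1287 in the others, and Mpeg1, a macrophage pore-forming protein, was at 1009 there and under the bound in the other 5 samples, both named after their values were seen. Adgre1 (F4/80) and Itgam (CD11b), which define macrophages and myeloid cells, were under the bound in that sample, at 19.0 and 81.2. Lyz1 and Lyz2 were above the bound in all 6 samples.

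Summed T and natural killer cell markers were at 2447 to 6668 in CD49- and at 3918 to 12127 in CD49+ samples, the highest in CD49+ replicate 1. Cd3e, Gzma, Il2rb and Ncr1 were under the bound in all samples, while Cd8a was above it in all 6. Nkg7, at 43.4 to 9318, was highest in CD49+ replicate 1 and under the bound in CD49- replicate 1 alone. Lat, at 17.1 to 2149, was highest in CD49- replicate 1 and under the bound in CD49+ replicate 2 alone. Summed granulocyte markers were at 5836 to 16915 in CD49- and at 4634 to 7931 in CD49+ samples. Camp, Ltf, Mmp8 and Ngp were under the bound in all samples. Prtn3, at 3991 to 12462, and S100a8, at 144 to 3744, were above it in all 6. The early response gene Nfkbia, an inhibitor of NF-kappaB, was at 7713 and 19951 in CD49- and CD49+ replicate 1 and at 890 to 2217 in the 4 MZ1468 samples. Of the 5 early response genes tested on MOE430A, 3 (Cd83, Zfp36 and Egr1) were called higher in MZ1484 (limma adjusted p of 0.021, 0.030 and 0.048), where 1.35% of all genes tested there were called higher. The first 2 are named after their values were seen, and the list was chosen with earlier results known. These calls are lost, as are all calls on that design, when CD49- replicate 2, CD49- replicate 3 or CD49+ replicate 3 is left out. On MOE430B, 1 of the 3 early response genes tested was called, Tnfaip3 as higher in MZ1484, where 6 of all 6301 genes tested there were. Leaving out any of these samples lost that call too. On MOE430A, Tnfaip3 was at or under the bound in all samples. Cd69 on MOE430B was not called. Its CD49 groups did not overlap, at 946 to 2064 in CD49- and 2541 to 14437 in CD49+ samples, where 9.26% of the tested probe sets of that design showed no overlap. The share of these cell types and of this response in the signals of Ccl3, Ccl4 and Ccl6 was not tested. In such samples, fewer cells of a type and less RNA per cell cannot be told apart.

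The genes most like the tested chemokines in their pattern were found by Pearson's correlation of log2 values over the 6 samples, as a description, since the samples share submissions. For Ccl3 the most like of 7321 other genes were Fxyd5 (r = 0.997), Psmb8 (r = 0.995) and Mrpl52 (r = 0.991), all of which had their highest signal in CD49+ replicate 1. Fxyd5, for example, was at 33640 there and at 22033 to 24527 in the others. For Ccl4 they were Ifitm1 (r = 0.998), Rrad (r = 0.996) and Hlf (r = 0.992). Rrad was at 4152, 777 and 195 in CD49- and at 8200, 40.0 and 212 in CD49+ replicates 1, 2 and 3, in the order of samples that Ccl4 has.

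For Ccl9 the most like genes were Ddx41, Mrpl28 and Xpc, each with r = 0.999, and 67 genes in all reached 0.99, against 4 for Ccl3 and 7 for Ccl4. Xpc, a DNA repair gene, reached 2161 to 2931 in the 4 MZ1468 samples against 7.00 and 7.28 in MZ1484, the same split by submission as Ccl9. On MOE430B the probe set of Ccr2 was most like Mdga1 and Stox2 (r = 0.969 each) and Anxa6 (r = 0.966), at signals of Ccr2 that were all under the bound.

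**Figure D4:**
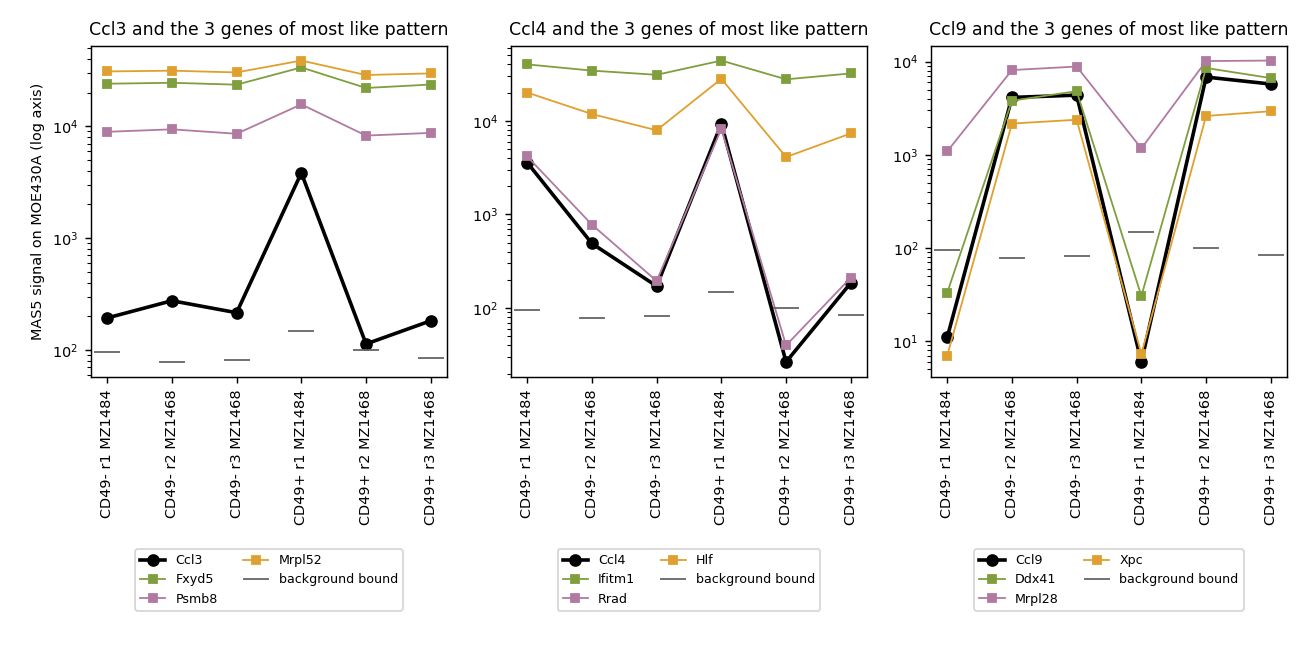
MAS5 signal on MOE430A (log axis) of Ccl3, Ccl4 and Ccl9 (black) and of the 3 genes of most like pattern to each (colours), by sample, with dashes at the background bound. Levels of different genes are not comparable, and the shapes show 1 high sample for Ccl3, 2 high MZ1484 samples for Ccl4 and 2 low MZ1484 samples for Ccl9.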

How the data were processed

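Expression was measured on Affymetrix MOE430A and MOE430B arrays of 6 samples. The values used are linear signal intensities, 1 per probe set, which the authors deposited and made with MAS5, per the submitters' processing notes. No source used here gives its version or settings. The 2% trimmed mean lay between 1500.6 and 1501.2 on all 12 arrays, and the deposited intensity values were used unscaled. They came without detection calls, and arrays have no read depth, so that their number limits the precision.

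Gene symbols came from the platform annotation (20380 probe sets with 1 symbol, 691 with several on MOE430A; 14661 and 245 on MOE430B), checked through Entrez identifiers against RefSeq (20351 and 14486 matched, 0 updated). The deposited intensities were transformed to log2(signal + the 25th percentile of the design). Probe sets whose mean log2 value reached the design's median (11313 and 11256) entered limma 3.58.1, run in R 4.3.3 (lmFit, eBayes with trend, Benjamini-Hochberg, threshold 0.05), each design alone. CD49+ was compared with CD49- in 3 against 3 samples, and MZ1484 with MZ1468 (2 against 4 samples) with CD49 as a covariate. The script was tested on simulated data. Alternatives were the submission as a block, other pseudocounts, filters and scalings, MZ1468 alone, and each sample left out.

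Genes considered for naming were the 8 genes, and of each other list the 2 with the smallest p for CD49 and the 2 with the highest mean, plus the 3 of most like pattern. Not all of these are named. Further genes are named for their place against the background bound or after their values were seen. The genes, lists and tests were chosen with earlier results of these data known. In the promoter search, the degenerate kappaB consensus replaced a narrower kappaB pattern that had been searched first and that matched Ccl9 and Cxcl2 but not Ccr1. The labels' extraction text names total RNA where the sample descriptions name cDNA, and the descriptions were followed.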

Additional observations from a re-analysis of the deposited data

Results flagged for a closer look

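For 6 of the 14 probe sets, the CD49+ sample of MZ1484 lay on one side of its CD49- sample, while both CD49+ samples of MZ1468 lay on the opposite side of both of theirs. Within MZ1468 alone, the CD49 groups did not overlap for 3615 of 11313 tested probe sets on MOE430A and 3810 of 11256 on MOE430B. How many of those lay on the opposite side in MZ1484 was not counted, and nothing is read from the 6. For Ccl3 (1419561_at) the log2 difference CD49+ minus CD49- was 4.13 within MZ1484 and -0.66 within MZ1468. For Ccl9 (1417936_at) it was -0.20 within MZ1484, where both signals were under the background bound, and 0.56 within MZ1468. For Ccl9 (1448898_at) it was 1.02, again between signals under the bound, and -1.61. MZ1484 held 1 sample of each group, and whether the CD49 difference differed between submissions was not tested for any of the 6. The remaining 3 were at or under the bound in all 6 samples, so that their signs carry no level, with 1.04 and -0.79 for Ccl5 (1418126_at), 0.28 and -0.91 for Ccr2 (1421187_at) and -0.10 and 0.68 for Ccr2 (1421186_at), within MZ1484 and MZ1468 in turn.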

How the results depend on the processing

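The comparison of CD49+ with CD49- gave 0 calls on both designs under every alternative run (submission as a block, pseudocounts, filters, scalings, each sample left out and MZ1468 alone), with 80 to 655 unadjusted p-values under 0.05 on MOE430A and 192 to 977 on MOE430B. The 839 calls between submissions on MOE430A fell to 559 with a pseudocount at the median signal and to 319 with no filter, and ranged from 0 to 1298 with 1 sample left out. Leaving out CD49- replicate 2, CD49- replicate 3 or CD49+ replicate 3 gave 0, as did, on MOE430B, these and CD49+ replicate 2 (1227 to 1853 unadjusted p-values under 0.05). The 45 calls on MOE430B became 95 with a pseudocount of 1, 12 with a pseudocount at the median signal, 149 in the top 25% by mean, 18 with median centring and 148 without the CD49 term, and ranged from 0 to 28 with 1 sample left out. Median centring moved the split on MOE430B from 11 higher and 34 lower in MZ1484 to 9 and 9. The causes were not tested. The median difference between submissions on MOE430A was -0.43 as deposited, -0.16 with median centring and 0.00 with quantile normalization. Of the 14 probe sets, 5 kept the sign of their CD49 difference and 5 that of their submission difference under all alternatives. Where a sample left out leaves 1 in an arm, that sample is assumed to vary like the others. No paired analysis was possible because the replicate numbers were given in accession order and pair no samples, so that the submission served as the block. The array number and the closeness of most chemokine signals to the background bound limit what can be told.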
